A study of Mus musculus with 9 samples.

Results

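The BCL2 family genes described here are 3 survival genes, Bcl2, Bcl2l1 and Mcl1, 2 effector genes, Bax and Bak1, and 4 genes of BH3-only death proteins, Bcl2l11, Bbc3, Pmaip1 and Bid. They were listed by name, and a probe set was taken when the platform annotation gave it exactly 1 gene symbol and that symbol was on the list. Of the 9 genes, 8 were named by 27 probe sets. For Bax no probe set carried the name in the annotation used, so Bax was not analysed here. All 8 named genes had a probe set that was detected (called present) in each of the 3 mice of some day, and they are 8 of the 11796 genes tested.

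RNA came from the stromal vascular fraction (SVF) of inguinal fat, the mixed stromal, vascular and blood-derived cells left after digestion of the tissue and removal of floating adipocytes. The mice were wild type Balb/c, 10 weeks of age by the labels, and each of 9 Affymetrix Mouse430_2 arrays held the SVF of 1 mouse. There were 3 mice on day 0, 3 on day 1 and 3 on day 3 after surgical priming, with no mouse measured again. The labels name surgical injury of the fat, and the study's methods describe priming as mincing of the fat together with ligation of its feeding artery. Day 0 was taken as the nonprimed group, and a sham-operated SVF of days 1 and 3 was not analysed here, so time after surgery and priming cannot be told apart. The authors' MAS5 signal is a probe intensity summarized per probe set, and every array had been scaled by the authors to a common mean.

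On single arrays 24106 to 26299 of the 45101 probe sets were detected, and the actin control read 1.15 to 1.32 times higher at its 3' end than at its 5' end. Markers of adipose progenitors (Pdgfra), endothelial cells (Pecam1) and macrophages (Adgre1) were called present on all 9 arrays. Of 8 adipocyte markers named, Adipoq, Fabp4, Lpl, Pck1 and Lipe were present on all 9 arrays, Cidec on 8, and Lep and Retn on none. Of 8 epithelial markers, Cdh1 and Krt10 were present on all 9 and Krt5, Krt14 and Krt1 on none. The cell mixture differed between days. Of 12 neutrophil markers tested, 10 rose on day 1, while 9 rose and 1 (Il1r2) fell on day 3, and of 14 T cell markers 8 fell on each day. Cxcr2 and Cd177, among the neutrophil markers that rose, were present on only 4 arrays. Each entered the test through a single day and is weak support for a rise. In such bulk RNA, fewer cells of a type and less RNA per cell cannot be told apart.

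BCL2 family proteins set whether the outer membrane of the mitochondrion stays intact. The survival proteins BCL2, BCL-XL (from Bcl2l1) and MCL1 hold the effectors BAX and BAK in check, and freed effectors form pores through which cytochrome c leaves and starts the caspase cascade. The BH3-only proteins BIM (from Bcl2l11), PUMA (from Bbc3), NOXA (from Pmaip1) and BID relay stress by binding the survival proteins or the effectors. In mice BCL2 is known for keeping resting lymphocytes alive, MCL1 for keeping neutrophils and many other cells alive, and BIM for removing lymphocytes and myeloid cells when growth factors run out.

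Changes are log2 differences in MAS5 signal between days, and the word called stands for an adjusted p under 0.05 over all genes in limma. On day 1 against day 0, Bcl2l11 was called higher and Bcl2 lower, 1 of 8 genes each way, while 10.7% of all genes tested were called higher and 17.9% lower. On day 3 against day 0, Bak1 was called higher and none of the 8 lower, beside 13.6% and 12.5% of all genes. On day 3 against day 1, Pmaip1 was called lower and none higher, beside 4.54% and 9.66% of all genes. A count of 0 or 1 among 8 genes was not read as a result about the family. The median change of the 8 genes was 0.19 on day 1 against day 0 and −0.07 on day 3 against day 0, beside −0.13 and −0.03 over all genes. Centring each array on its median signal moves the median of all genes on day 1 to 0.13. With it, 5 of the 8 genes were called higher and 1 lower on day 1, and 2 higher and 0 lower on day 3. Of all 11796 genes, 2896 were then called on day 1 in either direction. These counts were not read as a result about the family either.

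**Figure D1:**
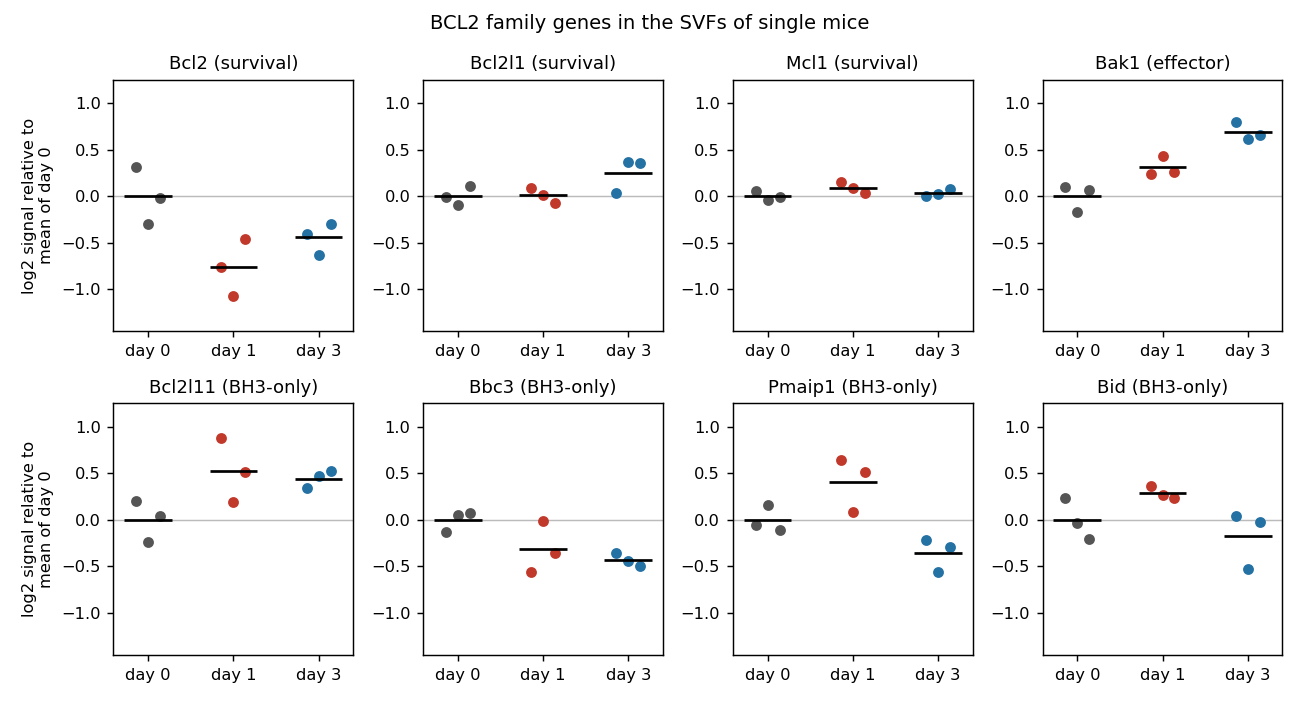
The vertical axis is the log2 MAS5 signal of each gene's brightest probe set relative to the mean of its day 0 mice, with 1 panel for each of 8 genes, 1 point per mouse and a bar at the mean of 3 mice. Bcl2 is lower in all day 1 mice than in all day 0 mice, Bak1 is highest in the 3 day 3 mice, Pmaip1 is lower in all day 3 mice than in all day 1 mice, and Mcl1 stays within about 0.2 of its day 0 mean in every mouse under the authors' scaling.

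**Figure D2:**
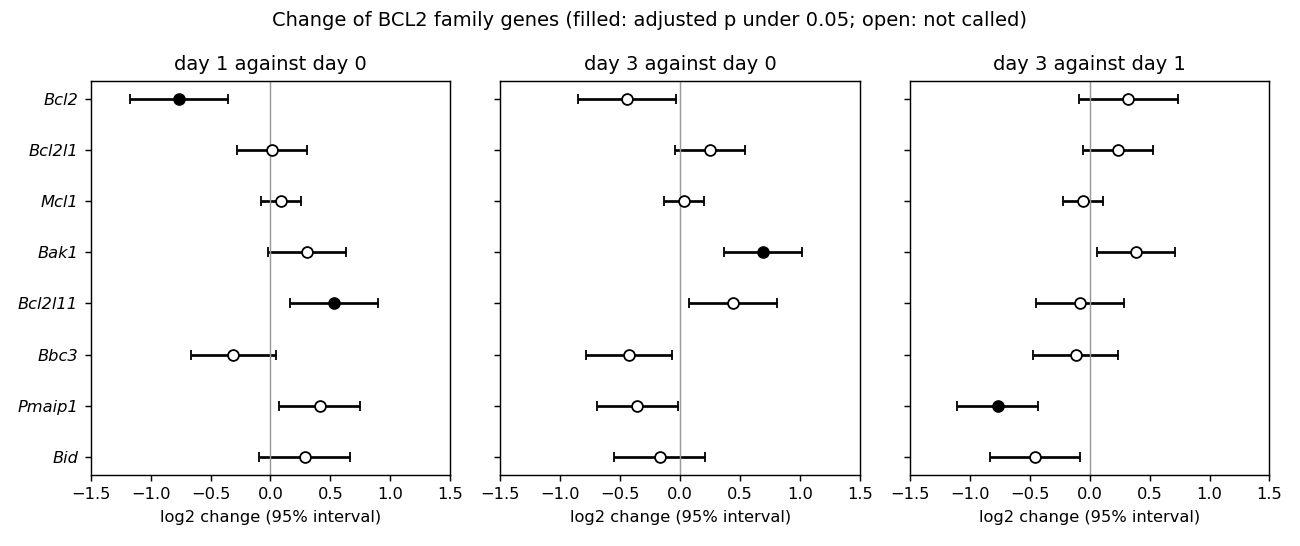
The horizontal axis is the log2 change with its 95% interval from limma (n = 3 mice per day) for 8 genes in each of the 3 comparisons, and filled points mark an adjusted p under 0.05. There are 2 filled points on day 1 against day 0 and 1 in each of the other comparisons.

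The starts of the 3 genes called against day 0 are shown because they are the control regions of the transcripts that differed after priming. Each is the 250 bases before the annotated start, from RefSeq on GRCm38.p6, the reference of another strain than the BALB/c mice used, written 5' to 3' on the strand of the gene. Capitals mark matches on either strand to the GC box GGGCGG, the CCAAT box CCAAT or the FOXO core GTAAACA, and no matches overlap.
Bcl2, chr1:106714291-106714540, minus strand: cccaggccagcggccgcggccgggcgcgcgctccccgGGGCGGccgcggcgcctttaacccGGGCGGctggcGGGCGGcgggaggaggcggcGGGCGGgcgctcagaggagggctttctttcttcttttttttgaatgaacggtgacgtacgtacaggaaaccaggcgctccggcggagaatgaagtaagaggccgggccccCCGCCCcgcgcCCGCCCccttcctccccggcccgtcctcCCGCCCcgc
Bcl2l11, first of its starts, chr2:128125788-128126037, plus strand: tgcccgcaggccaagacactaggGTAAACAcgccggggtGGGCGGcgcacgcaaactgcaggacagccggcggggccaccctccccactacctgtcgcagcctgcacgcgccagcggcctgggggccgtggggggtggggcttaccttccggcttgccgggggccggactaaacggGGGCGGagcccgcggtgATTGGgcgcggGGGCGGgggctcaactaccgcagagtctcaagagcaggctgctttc
Bak1, chr17:27028628-27028877, minus strand: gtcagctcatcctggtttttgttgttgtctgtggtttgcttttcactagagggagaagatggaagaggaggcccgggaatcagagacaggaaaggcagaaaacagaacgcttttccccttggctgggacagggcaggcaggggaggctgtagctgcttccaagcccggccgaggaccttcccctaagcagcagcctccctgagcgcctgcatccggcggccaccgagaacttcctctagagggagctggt

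The Bcl2 stretch held 7 GC boxes and was 74.8% G and C, with 36 CpG. The Bcl2l11 stretch was 72.0% G and C and held 1 FOXO core, 3 GC boxes and 1 CCAAT box. The window of the second Bcl2l11 start, not shown, held no FOXO core, 2 GC boxes and 2 CCAAT boxes. Which start these cells use was not measured. The Bak1 stretch, at 58.4% G and C, held none of these. Among the same window of 32851 mouse promoters, 3.17% held the FOXO core, 32.7% a GC box and 33.8% a CCAAT box. The AP-1 site TGANTCA, found in 6.75% of promoters, and the hypoxia response core ACGTG, found in 16.6%, matched in none of the 3 windows shown. A match is a description of the letters only.

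Among the survival genes, Bcl2 was lower after priming. Its brightest probe set, 1457687_at, gave MAS5 signals of 1339, 876 and 1058 in the day 0 mice, 635, 512 and 780 in the day 1 mice, and 811, 696 and 875 in the day 3 mice. Every day 1 mouse lay below every day 0 mouse, and the highest day 3 mouse lay just under the lowest day 0 mouse. Bcl2 fell by 0.76 ± 0.19 on the log2 scale on day 1 against day 0 (SE, n = 3 mice per day, adjusted p = 0.0126), a ratio of 0.589 with a 95% interval of 0.443 to 0.784. On day 3 the change was −0.44 ± 0.19 (adjusted p = 0.106), and day 3 against day 1 gave 0.32 ± 0.19 (adjusted p = 0.27). Without the first mouse of day 0, the change on day 1 was −0.61 with an adjusted p of 0.0504.

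All 5 probe sets of Bcl2 were present on the 3 day 0 arrays, and each was tested in a fit of 24920 probe sets, of which 14.3% were called lower and 8.0% higher on day 1. All 5 were called lower on day 1, although 1422938_at passed the filter only through day 0, the day of its highest signals. The 4 dimmer ones fell by more than the brightest one. Probe sets 1422938_at and 1437122_at fell by 1.00 and 1.27 (adjusted p = 0.0117 and 0.00466), and 1440770_at and 1443837_x_at fell by 1.51 and 1.52 (adjusted p = 0.0241 and 0.0234). They read transcripts of 1 gene in the same mice and are not independent. On day 3, 2 of the 5 were called lower, 1422938_at by 0.90 and 1437122_at by 1.19, beside 9.75% of all probe sets called lower and 9.72% higher. With the mean of the 5 probe sets in place of the brightest, the day 3 change of Bcl2 was −0.97 and was called (adjusted p = 0.0219).

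Of the dimmer Bcl2 probe sets, 1440770_at and 1443837_x_at varied most between mice of a day, with an SD of 0.58 and 0.57 on day 0 on the log2 scale, while 1422938_at and 1437122_at had one of 0.16 each, below the 0.31 of the brightest. For 1440770_at the day 0 mice gave 866, 397 and 497, the day 1 mice 105, 188 and 370, and the day 3 mice 184, 238 and 307. The first day 1 mouse was the lowest of all 9, and no day 1 mouse reached a day 0 mouse. For 1422938_at, detection was present in only 1 of 3 day 1 mice and 2 of 3 day 3 mice, against all 3 day 0 mice.

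**Figure D3:**
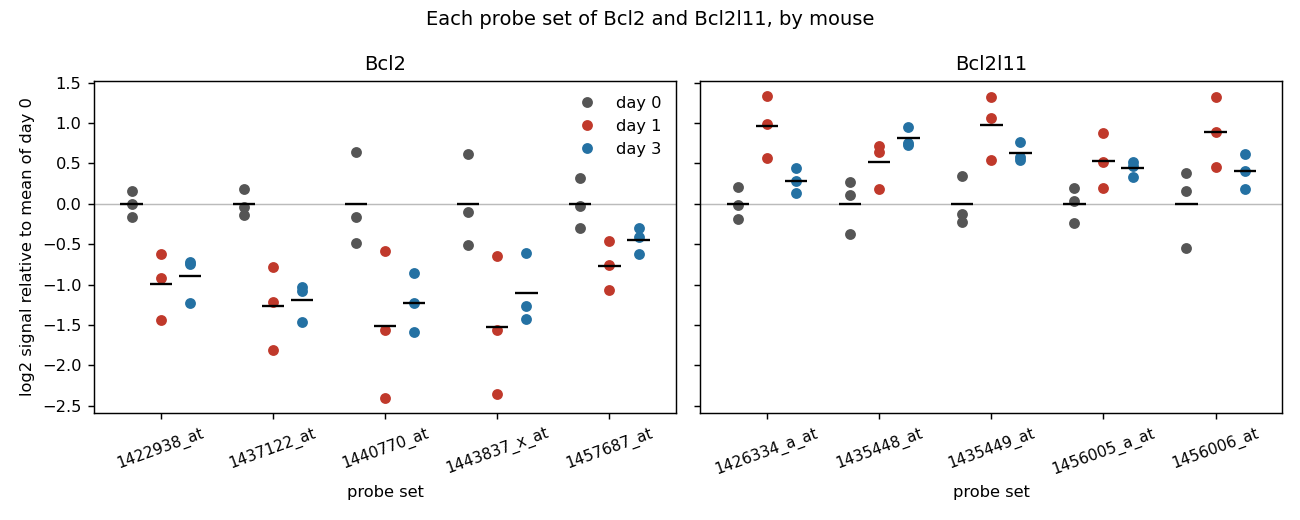
The vertical axis is the log2 MAS5 signal relative to the day 0 mean of the same probe set, for the 5 probe sets of Bcl2 and the 5 of Bcl2l11, with 1 point per mouse and a bar at the mean of each day. All 5 Bcl2 probe sets have their day 1 mice below their day 0 mice, and the Bcl2l11 probe sets differ in whether day 1 or day 3 is the higher.

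T and B cell markers moved in the same direction as Bcl2. The mean log2 level of 14 T cell markers, set relative to day 0, was −0.04 to 0.07 in the day 0 mice, −2.25 to −0.45 in the day 1 mice and −1.40 to −0.80 in the day 3 mice. Of the T cell markers named on the array, Cd4 was present on no array. The mean of 13 B cell markers was −0.23 to 0.40 on day 0, −1.38 to −0.28 on day 1 and −1.49 to −0.70 on day 3. Of these markers 6 fell on day 1 and 9 fell on day 3. Vpreb3, counted on both days, was present on only 4 arrays and entered the test through a single day. Natural killer (NK) cells, also lymphocytes, went otherwise. Of 8 NK cell markers, 3 rose and none fell on day 1, and 2 rose and none fell on day 3. Their mean was 0.22 to 0.45 on day 1 and −0.41 to 0.56 on day 3.

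Mouse by mouse, the mean of the 5 Bcl2 probe sets relative to day 0 was −1.75, −1.26 and −0.62 on day 1. The T cell level in those mice was −2.25, −0.82 and −0.45, and the B cell level was −1.38 in the first of them and −0.28 in the third. By this mean the mouse lowest for Bcl2 on day 1 was lowest for both lists, and the mouse highest for Bcl2 was highest for both. By the brightest probe set alone, the second mouse was the lowest, at 512 against 635 in the first. On day 3 the Bcl2 means were −1.04, −1.16 and −0.71, and the third mouse was highest for Bcl2 and for both lists. The second mouse was lowest for Bcl2 and the B cell list, while the first, at −1.40, was lowest for the T cell list. On day 0 the Bcl2 means were 0.38, −0.30 and −0.08, the reverse order of the T cell level at −0.04, 0.07 and −0.02. The B cell level in those mice, at 0.40, −0.23 and −0.18, had the same order as Bcl2. Endothelial markers were also lower, with 10 of 14 falling on day 1 and a mean level between −0.72 and −0.61. Over the 9 arrays, the brightest Bcl2 probe set had a Pearson r of 0.81 with the B cell mean, 0.62 with the T cell mean and 0.58 with the endothelial mean. With the neutrophil mean r was −0.86, and with the monocyte and macrophage mean it was −0.82. The part of these cell types in the Bcl2 result was not tested.

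**Figure D4:**
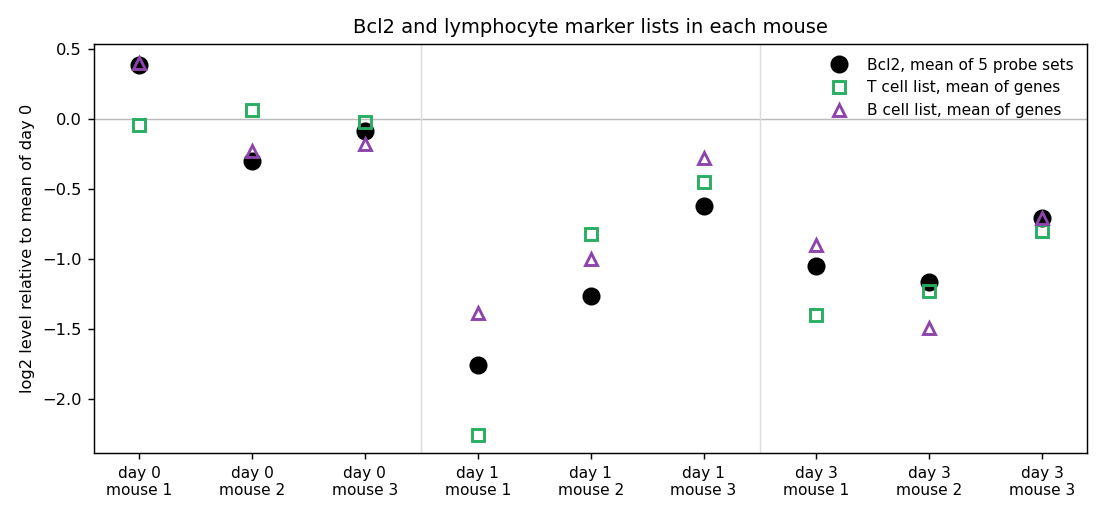
The vertical axis is the log2 level relative to the day 0 mean for each of the 9 mice, as the mean of 5 Bcl2 probe sets (filled circles), the mean of 14 T cell markers (squares) and the mean of 13 B cell markers (triangles). In the day 1 mice all 3 measures are lowest in the first mouse, where Bcl2 is at −1.75, and highest in the third, where it is at −0.62.

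Mcl1, whose short-lived protein is the survival factor of neutrophils, had the smallest standard error of the 8 genes. Probe set 1448503_at gave 18587, 17445 and 17819 in the day 0 mice, 19897, 19075 and 18361 in the day 1 mice, and 17903, 18229 and 18913 in the day 3 mice. The 3 days overlapped. The change was 0.09 ± 0.08 on day 1 against day 0 (adjusted p = 0.384), with a 95% interval of −0.08 to 0.26, and 0.03 ± 0.08 on day 3 (adjusted p = 0.791), with an interval of −0.13 to 0.20. Of the 6 Mcl1 probe sets none was called in any comparison. With each array centred on its median, the day 1 change of 1448503_at was 0.35 and was called (adjusted p = 0.0451). For 1416881_at the day 1 mice, at 12991, 11272 and 11887, did lie above the day 0 mice, at 9862, 10073 and 10382, with a change of 0.25 (adjusted p = 0.056).

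For Bcl2l1, the gene of BCL-XL, probe set 1420888_at gave 568, 535 and 620 on day 0, 611, 579 and 547 on day 1, and 586, 739 and 733 on day 3. The day 1 and day 0 mice overlapped fully. The change on day 1 was 0.01 ± 0.13 (95% interval −0.28 to 0.30, adjusted p = 0.953), and on day 3 it was 0.25 ± 0.13 (interval −0.04 to 0.54, adjusted p = 0.189). The 3 other Bcl2l1 probe sets were called present on no array and were not tested.

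Of the effectors, Bak1 rose on day 3. Its pore-forming protein sits in the mitochondrial outer membrane of healthy cells. Probe set 1418991_at gave 194, 162 and 191 in the day 0 mice, 214, 245 and 218 in the day 1 mice, and 316, 278 and 287 in the day 3 mice. The 3 days did not overlap in any pair. Bak1 rose by 0.69 ± 0.15 on day 3 against day 0 (adjusted p = 0.00589), a ratio of 1.61 with a 95% interval of 1.29 to 2.02. On day 1 against day 0 the change was 0.31 ± 0.15 (adjusted p = 0.136), and on day 3 against day 1 it was 0.38 ± 0.15 (adjusted p = 0.107). With quantile normalization the day 1 change was 0.56 and was called (adjusted p = 0.0206), and with median centring it was 0.57 (adjusted p = 0.0213). The other Bak1 probe set, 1425716_s_at, was called present on no array.

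Markers of dividing cells and of macrophages were also higher on day 3 than on day 0. Of 11 proliferation genes, 9 rose on day 3 against day 0, with a mean level of 1.33 to 1.36 in the day 3 mice and −0.17 to 0.26 in the day 0 mice. Plk1, among those that rose, was present on only 3 arrays and entered the test through a single day. Of 17 monocyte and macrophage markers, 9 rose and 1 fell on day 3, with a mean level of 0.78 to 1.00 in the day 3 mice and −0.10 to 0.10 in the day 0 mice. These macrophage markers were as high on day 1, at 0.75 to 1.11, with 9 rising and 1 falling. The proliferation level on day 1 was −0.06 to −0.04. The part of dividing cells and macrophages in the Bak1 result was not tested.

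Of the BH3-only genes, Bcl2l11 was called higher on day 1. Its brightest probe set, 1456005_a_at, gave 2743, 2032 and 2452 in the day 0 mice, 4397, 2732 and 3416 in the day 1 mice, and 3023, 3321 and 3427 in the day 3 mice. The second day 1 mouse lay just below the first day 0 mouse, so these days overlapped, while all day 3 mice lay above all day 0 mice. Bcl2l11 rose by 0.53 ± 0.17 on day 1 (adjusted p = 0.0358), a ratio of 1.44 with a 95% interval of 1.12 to 1.86. On day 3 against day 0 the change was 0.44 ± 0.17 (adjusted p = 0.0725), and day 3 against day 1 gave −0.08 ± 0.17 (adjusted p = 0.768). The day 1 call was lost with quantile normalization, where the change was 0.43 (adjusted p = 0.0775), and in 5 of the 9 fits that left out 1 mouse. The adjusted p was 0.106 without the second mouse of day 0 (change 0.41), 0.0837 without the third mouse of day 0 (0.55) and 0.135 without the first mouse of day 1 (0.35). It was 0.0517 and 0.0509 without the first or the second mouse of day 3 (0.53 in both). The day 3 change, at 0.44, was called without the first or the second mouse of day 1 (adjusted p = 0.0325 and 0.0394), and with median centring it was 0.54 and was called (adjusted p = 0.0388).

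In the fit of all probe sets, 4 of the 5 Bcl2l11 probe sets were called higher on day 1, and the fifth had a change of 0.52 (adjusted p = 0.0582). Probe set 1426334_a_at gave 560, 427 and 480 in the day 0 mice, 1225, 719 and 960 in the day 1 mice, and 591, 533 and 663 in the day 3 mice. It rose by 0.96 ± 0.19 on day 1 against day 0 (adjusted p = 0.00597), and on day 3 it fell by 0.67 ± 0.19 against day 1 (adjusted p = 0.0494), where 3.15% of all probe sets were called lower and 6.19% higher. Probe set 1435448_at gave 2329, 1486 and 2071 in the day 0 mice, 3172, 2198 and 3010 in the day 1 mice, and 3241, 3202 and 3726 in the day 3 mice. Its highest mice were those of day 3, when it rose by 0.81 ± 0.18 against day 0 (adjusted p = 0.00945). Probe set 1435449_at was called higher on both days, by 0.98 on day 1 (adjusted p = 0.00715) and by 0.63 on day 3 (adjusted p = 0.0471).

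Pmaip1, the gene of NOXA, which binds MCL1, was lower on day 3 than on day 1. Probe set 1418203_at gave 2639, 3054 and 2546 in the day 0 mice, 4260, 2903 and 3898 in the day 1 mice, and 2348, 1856 and 2244 in the day 3 mice. The day 3 mice lay below all others, and the second day 1 mouse lay within the day 0 range. Pmaip1 fell by 0.77 ± 0.15 on day 3 against day 1 (adjusted p = 0.00791), a ratio of 0.588 with a 95% interval of 0.465 to 0.742. Against day 0 the changes were 0.41 ± 0.15 on day 1 (adjusted p = 0.0655) and −0.36 ± 0.15 on day 3 (adjusted p = 0.112). Without the second mouse of day 1, the day 1 change was 0.57 and was called (adjusted p = 0.0176), and with median centring it was 0.67 (adjusted p = 0.0145).

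The mean of the mast cell markers had the same order of days as Pmaip1, but the single markers were split on day 1. The mean of 10 mast cell markers relative to day 0 was −0.09 to 0.06 on day 0, 0.29 to 0.62 on day 1 and −0.39 to −0.12 on day 3. Only 3 of these markers rose and 1 fell on day 1 against day 0, with a median change of −0.04. Of them 4 fell and none rose on day 3 against day 1, and none of the 10 was absent from every array. Neutrophil markers were lower on day 3 than on day 1 as well, with 6 of 12 falling and none rising. The mean of 12 neutrophil markers relative to day 0 was −0.21 to 0.39 on day 0, 4.07 to 4.49 on day 1 and 2.46 to 2.97 on day 3. S100a8 and S100a9 were present on all 9 arrays, while Camp and Elane were present on none. On day 3 the neutrophil level stayed above day 0 in every mouse, although Il1r2 fell by 1.01, while Pmaip1 in every day 3 mouse was below the day 0 mice. The part of mast cells and neutrophils in the Pmaip1 and Bcl2l11 results was not tested.

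For Bbc3, the gene of the p53 target PUMA, probe set 1423315_at gave 288, 326 and 330 in the day 0 mice, 213, 312 and 245 in the day 1 mice, and 246, 231 and 223 in the day 3 mice. All day 3 mice lay below all day 0 mice. The change was −0.31 ± 0.16 on day 1 (adjusted p = 0.172) and −0.43 ± 0.16 on day 3 (adjusted p = 0.0753), and neither was called. Without the second mouse of day 1, the day 3 change passed the threshold (adjusted p = 0.0478).

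For Bid, whose protein is cut by caspase-8 and links death receptors to mitochondria, probe set 1417045_at gave 605, 502 and 445 in the day 0 mice, 659, 616 and 602 in the day 1 mice, and 529, 355 and 505 in the day 3 mice. The day 3 mice lay below the day 1 mice. The change was 0.28 ± 0.17 on day 1 (adjusted p = 0.228), −0.17 ± 0.17 on day 3 (adjusted p = 0.498) and −0.46 ± 0.17 on day 3 against day 1 (adjusted p = 0.0987). None of these was called. With each array centred on its median, the day 1 change was 0.55 (adjusted p = 0.0374) and that of day 3 against day 1 was −0.62 (adjusted p = 0.0412), and both were called. A dimmer Bid probe set, 1447873_x_at, lay between 59.2 and 102 in all mice and was not called, and 1448560_at did not pass the filter.

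By Pearson correlation of log2 signal over the 9 arrays, which share the 3 days, the genes most like Bcl2 were C2cd5 (r = 0.985) and 6030458C11Rik (r = 0.978). Those most like Bak1 were Pgap6 (r = 0.967) and Sec61a1 (r = 0.965), and those most like Bcl2l11 were Tnip1 (r = 0.956) and Spon1 (r = 0.951). For Pmaip1 they were Max (r = 0.960) and Gadd45a (r = 0.948). They are the 2 highest of all genes tested for each and are given as a description.

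Among the wider family, Bnip3 rose and Bmf fell on both days, and Bok rose on day 3. Of 19 such genes listed, 14 were named on the array and 10 were tested. On day 1 against day 0, 1 was higher and 1 lower, and on day 3, 2 were higher and 1 lower. Among all genes tested, 10.7% were called higher and 17.9% lower on day 1, and 13.6% and 12.5% on day 3. These shares also stand beside the list counts that follow, and no list count was tested against them. Bnip3, a mitochondrial receptor for the removal of mitochondria that is known to respond to low oxygen, rose by 1.56 ± 0.24 on day 1 (adjusted p = 0.000844) and by 1.70 ± 0.24 on day 3 (adjusted p = 0.000414), which are ratios of 2.95 and 3.26. Its mean log2 signal was 10.24 ± 0.21 on day 0, 11.80 ± 0.50 on day 1 and 11.94 ± 0.34 on day 3 (SD, n = 3 mice per day).

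Bmf, a BH3-only gene whose protein is tied to the cytoskeleton and to loss of cell attachment, fell by 0.78 ± 0.15 on day 1 (adjusted p = 0.00407) and by 0.69 ± 0.15 on day 3 (adjusted p = 0.00708). Bok, a relative of the effectors, rose by 0.81 ± 0.14 on day 3 against day 0 (adjusted p = 0.00189) and by 0.56 ± 0.14 on day 3 against day 1 (adjusted p = 0.0244). Hrk, a BH3-only gene best known from neurons, rose by 0.72 ± 0.21 on day 3 against day 1 (adjusted p = 0.0392). Bik, also BH3-only, had a change of −0.62 ± 0.26 on day 1 that was not called (adjusted p = 0.0908). Bcl2l2, Bad, Bcl2l13, Becn1 and Rad9a were not called in any comparison.

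**Figure D5:**
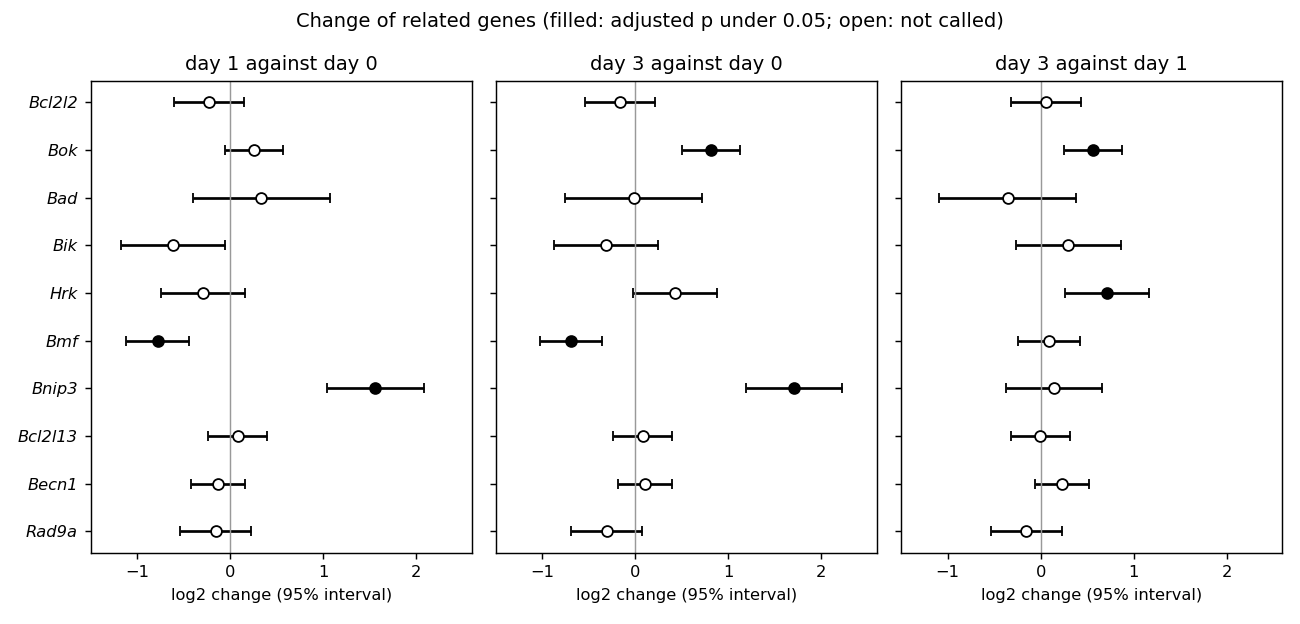
The horizontal axis is the log2 change with its 95% interval from limma (n = 3 mice per day) for the 10 related genes tested, in each of the 3 comparisons, and filled points mark an adjusted p under 0.05. Bnip3 is farthest to the right on both days, at 1.56 and 1.70, and Bmf is to the left on both.

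Upstream of the family, genes of transcription factors known to act on it, and of their regulators, differed in both directions. Of 16 tested, 2 were higher and 6 lower on day 1, and 2 were higher and 4 lower on day 3. Foxo1, whose protein can switch on Bcl2l11, fell by 0.96 ± 0.20 on day 1 (adjusted p = 0.00587) and by 0.87 ± 0.20 on day 3 (adjusted p = 0.00894). Foxo4 fell by 1.08 ± 0.26 on day 1 (adjusted p = 0.0111) and was not called on day 3 (−0.60, adjusted p = 0.112). Foxo3 was not called on day 1 (−0.44, adjusted p = 0.104) or on day 3 (−0.25, adjusted p = 0.363). The FOXO core in the Bcl2l11 stretch above, absent from the window of the second start, carries no information on binding. Hif1a, the oxygen-sensing factor known to act on Bnip3, rose by 0.85 ± 0.12 on day 1 (adjusted p = 0.000546) and by 0.81 ± 0.12 on day 3 (adjusted p = 0.000648). Mdm2, which restrains p53, rose by 1.31 ± 0.18 on day 1 (adjusted p = 0.000398) and by 0.90 ± 0.18 on day 3 (adjusted p = 0.00364), and Jun fell by 0.92 ± 0.14 on day 3 (adjusted p = 0.000783).

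Of 21 p53 target genes outside the family, 5 were higher and 5 lower on day 1, and 2 were higher and 2 lower on day 3. On day 1 Mdm2, which stands on both lists, and Eda2r were among the higher ones, Eda2r by 0.80 ± 0.19 (adjusted p = 0.0103), and Ddb2 and Sesn1 among the lower, at −0.88 and −0.72 (adjusted p = 0.0494 and 0.0377). On day 3 Plk2 rose by 0.67 ± 0.11 (adjusted p = 0.00143), Perp fell by 1.49 ± 0.33 (adjusted p = 0.00652) and Btg2 fell by 0.72 ± 0.13 (adjusted p = 0.00188). The median change of the list was −0.28 on day 1 and −0.11 on day 3, beside −0.13 and −0.03 over all genes.

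Downstream of the mitochondrion, Apaf1, the scaffold that cytochrome c joins to activate caspase-9, rose by 0.58 ± 0.15 on day 1 (adjusted p = 0.0158) and by 1.04 ± 0.15 on day 3 (adjusted p = 0.000509). Of 14 apoptosome and caspase genes, 2 were higher and 2 lower on day 1, and 1 was higher and 1 lower on day 3. Cycs, the cytochrome c gene, rose by 0.75 ± 0.15 on day 1 (adjusted p = 0.00525), while Casp2 fell by 0.76 ± 0.22 on day 1 (adjusted p = 0.0235). Endog, a mitochondrial nuclease gene, fell by 0.55 ± 0.16 on day 1 (adjusted p = 0.0264) and by 0.52 ± 0.16 on day 3 (adjusted p = 0.036).

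Of 8 inhibitor of apoptosis genes, 3 rose on day 1 and none fell, and 3 rose and 2 fell on day 3. Naip2 and Naip5, whose proteins are better known as sensors of bacterial proteins in macrophages, rose by 1.27 ± 0.16 and 0.89 ± 0.20 on day 1 (adjusted p = 0.000284 and 0.00828), and by 0.94 and 1.22 on day 3 (adjusted p = 0.00181 and 0.00128). They are close paralogs, so their probes may read both. Birc5, the survivin gene of dividing cells, rose by 1.99 ± 0.13 on day 3 (adjusted p = 2.24e-06), beside the proliferation genes above. Birc3 rose by 0.24 ± 0.08 on day 1 (adjusted p = 0.0487) and fell by 0.24 ± 0.08 on day 3 (adjusted p = 0.0491). Birc2 fell by 0.66 ± 0.14 on day 3 (adjusted p = 0.00608).

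Of 11 death receptor and adaptor genes, 2 were higher and 1 lower on day 1, and 3 were higher and 2 lower on day 3. Tnf, the cytokine, rose by 2.39 ± 0.16 on day 1 (adjusted p = 1.92e-06) and by 1.58 ± 0.16 on day 3 (adjusted p = 4.7e-05). Cflar, whose product c-FLIP blocks caspase-8, rose by 0.74 ± 0.14 on day 1 (adjusted p = 0.00261) and by 0.59 ± 0.14 on day 3 (adjusted p = 0.00859). Tnfsf10, the gene of the death ligand TRAIL, fell by 0.80 ± 0.24 on day 3 (adjusted p = 0.0277), and Tnfrsf1a, a receptor of TNF, rose by 0.47 ± 0.13 (adjusted p = 0.0179). Cradd, an adaptor of caspase-2, fell by 0.58 ± 0.19 on day 1 (adjusted p = 0.0443).

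Of 25 genes for turnover and partners of the family's proteins, 3 were higher and 1 lower on day 1, and 5 were higher and 1 lower on day 3. Among all genes the shares were 10.7% higher and 17.9% lower on day 1, and 13.6% and 12.5% on day 3. Huwe1, a ubiquitin ligase for MCL1, fell by 0.66 ± 0.19 on day 1 (adjusted p = 0.0248). Pim1, a survival kinase that acts on BAD, rose by 0.67 ± 0.13 on day 1 (adjusted p = 0.00398), and Ier3, a stress gene whose product binds MCL1, rose by 0.61 ± 0.11 on day 1 and by 0.45 ± 0.11 on day 3 (adjusted p = 0.00189 and 0.00955). On day 3 Pim3 fell by 0.70 ± 0.12 (adjusted p = 0.00151), and Vdac1, a channel of the mitochondrial outer membrane, rose by 0.52 ± 0.12 (adjusted p = 0.00826), as did Akt1, a survival kinase, by 0.51 ± 0.12 (adjusted p = 0.0105). Vdac3, a related channel, rose by 0.50 ± 0.15 on day 1 (adjusted p = 0.0328).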

How the data were processed

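Each array file deposited by the authors holds a MAS5 intensity, a detection call and a detection p-value per probe set, and the authors scaled each array to a common mean. The deposited p-value was not used. No genome build applies to the signals. Of 45101 probe sets, 64 controls, 932 with several symbols and 9160 with none were not used for genes. The 24920 probe sets detected in each of the 3 mice of some day were kept, each gene being its brightest one. Log2 signals of all 9 arrays entered 1 limma 3.58.1 fit (R 4.3.3, variance trend) with day as factor and 6 residual degrees of freedom. Tests were two-sided, with Benjamini-Hochberg adjustment over all 11796 genes, or 24920 probe sets. The fit was tested on simulated data. The number of arrays limits the precision.

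The genes and lists were chosen with earlier results of these data known. All listed genes of the family that passed are named, and in each other pathway list counts and up to 4 called genes with the largest change in each comparison with day 0. Beyond this rule, the day 3 changes of Birc3 and Foxo4 and both changes of Foxo3 are given. Several-symbol probe sets left the Bcl2a1 genes and Bnip3l without values. Alternatives covered scaling, offsets, filters, the choice of probe set, the model, a replicate block, thresholds and leaving out each array. Python 3.11.15 with pandas 2.3.3 and matplotlib 3.10.9 joined tables and drew plots.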

Additional observations from a re-analysis of the deposited data

Results flagged for a closer look

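Pmaip1 was picked out because the changes on days 1 and 3 against the same day 0 mice differed by a test of the difference itself, which is day 3 against day 1. That difference was −0.77 on the log2 scale (limma, adjusted p = 0.00791). All 3 day 3 mice, at 2348, 1856 and 2244, lay below all 3 day 1 mice, at 4260, 2903 and 3898. The cause was not tested.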

How the results depend on the processing

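No change of a single family gene took the opposite sign while called under any alternative. Of 576 such values, 536 kept their side of the threshold, 20 lost a call and 20 gained one. On day 1 against day 0 the 2 called genes became 6 with median centring, 1 with no filter, with no variance trend or with only the 6 arrays compared, and 0 at an adjusted p under 0.01 or with the methods' test and a 2-fold limit, unadjusted or adjusted. What is called the methods' test here was a 1-way analysis of variance over the 3 days, with the same p in every comparison. The paper names an analysis of variance with repeated measurements. On day 3 against day 0 the 1 called gene became 2 with median centring or when the probe sets of a gene were averaged, 4 with array weights or only the 6 arrays compared, and 0 with either form of the methods' test. The totals over all genes for the settings that gave 4 are not given here. That count was therefore not read as a result about the family. On day 3 against day 1 it became 2 with median centring and 0 with either form of the methods' test. Leaving out 1 mouse gave 1 to 3 called genes on day 1, 1 to 3 on day 3, and 1 in every case for day 3 against day 1. The Bak1 rise on day 3 and the Pmaip1 difference were lost only under the 2-fold limit.

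With a replicate block, 2, 3 and 1 genes were called in the 3 comparisons. Bcl2 and Bcl2l11 gained a call on day 3 (adjusted p = 0.0461 and 0.0481). Same-numbered mice of different days deviated with r between −0.15 and 0.33, and differently numbered ones with r between −0.40 and 0.31. With 3 mice per day, these values cannot decide whether the numbers mark shared handling. The labels name no pairing.

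Over all genes, 3378 were called on day 1, 3074 on day 3 and 1676 on day 3 against day 1. At an adjusted p under 0.01 these were 1410, 1554 and 629, and with the methods' test and a 2-fold limit 752, 860 and 445 (595, 690 and 381 adjusted). Median centring gave 2896 on day 1, and array weights gave 2614 on day 3 against day 1. Leaving out 1 mouse gave 1877 to 4548, 1889 to 3618 and 749 to 2823.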

Other observations

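The probe sets of Bcl2l11 differed in whether day 1 or day 3 was the higher. This was noticed after their values were seen and was not tested. The log2 signal of 1435448_at minus that of 1426334_a_at was 2.06, 1.80 and 2.11 in the day 0 mice, 1.37, 1.61 and 1.65 in the day 1 mice, and 2.45, 2.59 and 2.49 in the day 3 mice. This pair was picked from the 5 probe sets by these same values, as the highest and lowest change from day 1 to day 3. The separation of day 1 from day 3 was thus selected for and is no support. For this pair the 3 days did not overlap, with 1426334_a_at relatively higher on day 1 and 1435448_at on day 3. Bcl2l11 makes several spliced forms, and which of them each probe set reads was not looked up here.

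Bmf and Bnip3, related genes outside the 9 listed, moved in opposite directions on both days, Bmf by −0.78 and −0.69 and Bnip3 by 1.56 and 1.70. No mouse of day 1 or day 3 overlapped the day 0 mice for either gene.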
